A study of Mus musculus with 6 samples.

Results

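The ubiquitin-specific proteases (USPs) are the largest family of deubiquitinases, enzymes that take ubiquitin off proteins, and 48 genes of this family were measured in endothelial cells sorted from mouse retina. The members were all genes whose symbol starts with Usp and a digit, other than Usp18, which removes the ubiquitin-like protein ISG15. This left 48 of 19124 gene symbols in the deposited count table, and all 48 had enough counts to be tested. Usp6nl carries the family's name but encodes a protein without the protease fold, a Rab GTPase-activating protein.

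Libraries from 6 different pups were compared, 3 in each group. The control pups (Ctrl) were Pdgf{beta}CreERT2neg Rnf20p/p and the knockout pups (KO) were Pdgf{beta}CreERT2pos Rnf20p/p, all on C57BL/6. Both groups therefore carried the Rnf20p/p alleles, both received 75 µg of Z-4-HO-Tamoxifen daily from P1 to P4, and they differed by label only in the inducible Cre recombinase. CD31+ cells were sorted from retina at P7, and polyadenylated RNA was amplified from low input and sequenced as single reads. How completely the allele was recombined in the sorted cells was not analysed here.

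RNF20, with its partner RNF40, is the ubiquitin ligase that places monoubiquitin on histone H2B in transcribed genes. USPs work against ligases of this kind: a cysteine protease domain cuts the bond between ubiquitin and its substrate, so that a mark can be erased, a protein kept from degradation, or ubiquitin returned to the free pool. Usp7, Usp22, Usp44, Usp49 and Usp51 have been described as removing ubiquitin from H2B. These 5 were set apart as the H2B deubiquitinases and are given first. The list is a choice, and other members may also act on H2B.

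The libraries held 14581701 to 30692948 counts over 1 entry per gene symbol. Levels are given as counts per 1000000 (CPM), scaled by the trimmed mean of M values (TMM). The target of the knockout, Rnf20, stood at 47.9, 57.1 and 56.8 CPM in Ctrl and at 39.1, 31.0 and 31.7 CPM in KO. Every KO library was lower than every Ctrl library, by a log2 fold change of -0.67 (SE 0.235, adjusted p = 0.101 by the quasi-likelihood test of edgeR with Benjamini-Hochberg adjustment). The 15 endothelial markers summed to 3821, 5250 and 5798 CPM in Ctrl and to 11686, 15989 and 12008 CPM in KO, and 9 of 15 were called higher. The 14 photoreceptor markers summed to 34206, 19113 and 22099 CPM in Ctrl and to 4745, 9876 and 23144 CPM in KO, and 2 of 14 were called lower. Among markers of inner retinal neurons 4 of 13 tested were lower, and among glial markers 4 of 12 were higher. Microglial markers summed to 12995 CPM in KO 2 and to between 238 and 2490 CPM in the other 5 libraries. Erythroid markers summed to 80.03, 61.7 and 98.2 CPM in Ctrl and to 579.6, 459.9 and 685 CPM in KO, with 5 of 6 tested called higher and all 6 higher in every KO library. Platelet (2 of 4) and ganglion cell markers (2 of 7) were also called higher in part. Over all genes tested, 5.85% were called higher and 4.44% lower by edgeR. No defining marker of endothelium or photoreceptors was at 0 in a whole group. The sorted libraries thus held RNA of several retinal cell types in different proportions, and the part of this difference in the results below was not tested. In such bulk samples, fewer cells of a type and less RNA per cell cannot be told apart.

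The labels give no sex, but Xist stood at 108, 209 and 207 CPM in Ctrl and at 0.549, 4.42 and 0.0343 CPM in KO, while the Y-linked Ddx3y was at or below 0.130 CPM in every Ctrl library and at 152, 23.9 and 27.7 CPM in KO. Genotype and sex cannot be told apart for any difference given here.

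Because the family is read here through RNA alone, the stretch just before the annotated gene is shown for 3 members. They are Usp28 and Usp8, whose RNA was lower in every KO library, and Usp49, an H2B deubiquitinase whose groups overlapped. Each sequence starts 250 bases before a transcription start in RefSeq on GRCm38.p6 and runs 5′ to 3′ along the gene's strand. It ends where the annotated gene begins, after 184 bases for Usp28, 123 for Usp8 and 250 for Usp49. For Usp28 and Usp8 that transcription start lies inside the annotated gene, so their sequences stop short of it. Capitals mark CCGGAA, the core bound by ETS factors, and CCAAT, the box bound by NF-Y, or their reverse complements TTCCGG and ATTGG.
Usp28, chr9:48985135-48985318, plus strand: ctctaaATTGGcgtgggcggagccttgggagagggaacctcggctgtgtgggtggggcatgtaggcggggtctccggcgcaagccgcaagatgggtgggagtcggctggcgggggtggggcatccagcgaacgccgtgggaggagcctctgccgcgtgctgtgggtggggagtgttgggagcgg
Usp8, chr2:126707078-126707200, plus strand: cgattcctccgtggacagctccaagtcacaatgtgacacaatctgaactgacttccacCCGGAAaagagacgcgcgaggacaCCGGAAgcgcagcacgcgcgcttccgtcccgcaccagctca
Usp49, chr17:47630440-47630689, plus strand: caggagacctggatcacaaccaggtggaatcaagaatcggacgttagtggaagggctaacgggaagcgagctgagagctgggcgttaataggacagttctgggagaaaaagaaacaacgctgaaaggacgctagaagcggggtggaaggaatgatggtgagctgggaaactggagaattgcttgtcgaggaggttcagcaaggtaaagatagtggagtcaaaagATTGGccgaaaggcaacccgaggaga
The Usp8 stretch held 2 ETS cores, while those of Usp28 and Usp49 each held 1 CCAAT box and no ETS core. The Usp28 stretch was 69.6% G or C with 15 CpG dinucleotides in 184 bases, against 51.2% and 11 CpG dinucleotides in 250 bases for Usp49. These counts are over unlike lengths. In full windows of 250 bases, which reach into the annotated gene for Usp28 and Usp8, Usp28 held 26 CpG dinucleotides and Usp8 held 3 ETS cores. A full window of 250 bases was found for 37 members (38 windows). Members without a window included Usp22, Usp33 and Usp44. On either strand the ETS core was in 28.9% of the members' windows, against 12% of all 32851 promoter windows of the same length. The GC box GGGCGG was in 71.1% of the members' windows and 32.7% of all windows, CCAAT in 18.4% against 33.8%, and TATAAA in 5.26% against 12.4%. The median G or C content was 65.4% in members and 52.4% in all windows. All windows were counted whether or not their genes had enough counts to be tested, while every member was tested. The shares among tested genes alone were not computed, so these contrasts may not be particular to the family. Of the 14 windows of members that were lower in every KO library, 5 held an ETS core, and of the 23 windows of members whose groups overlapped, 6 held one. The 14 windows lack Usp22 and Usp33, and 2 of them belong to Usp6nl. A match to these letters is a description of the sequence and not evidence of binding.

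As a whole, the family took up a smaller part of the RNA in KO. Its members held 0.352, 0.370 and 0.348% of all counts in Ctrl (mean 0.356 ± 0.0115, SD, n = 3) and 0.271, 0.219 and 0.208% in KO (mean 0.233 ± 0.0339, SD, n = 3), with no overlap between the groups. In summed TMM-scaled CPM this was 3483, 3458 and 3307 in Ctrl against 2662, 2417 and 2189 in KO. KO 3 had the lowest family sum of the 6 libraries, and the part of cell mixture in these sums was not tested.

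Gene by gene, 2 members fell and none rose at an adjusted p below 0.05: Usp28 and Usp33. Over all 16217 genes tested, 4.44% were called lower and 5.85% higher, so that 2 of 48 is close to the background. At an unadjusted p below 0.05 there were 10 members lower and 0 higher, against 14.3% and 16.2% of all genes. DESeq2 called 6 members lower and none higher, against 9.85% and 12.9% of all genes. Limma-voom called 5 lower and none higher, against 5.69% and 6.09%. By the longest entry of each member, the authors' deposited table has 5 members lower, where 9.51% of its entries were lower and 12.7% higher. Leaving out KO 1 gave 12 lower and 0 higher with edgeR, against 14.5% and 15.2% of all genes. Leaving out any other library gave 0 members, and over all genes 866 calls without KO 3 and 0 without each of the other 4. The direction of the fold changes was less even than these calls: 38 of 48 members had a log2 fold change below 0, against 49% of all genes, and the median was -0.42 against 0.03 for all genes. With offsets for the GC content of the transcripts the members' median was -0.20, that of all genes was 0.05, and 5 members were called lower and none higher, against 5.79% and 6.55% of all genes. In 15 of 48 members every KO library was lower than every Ctrl library, against 18.9% of all genes, and in 1, Usp35, every KO library was higher, against 19% of all genes.

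**Figure D1:**
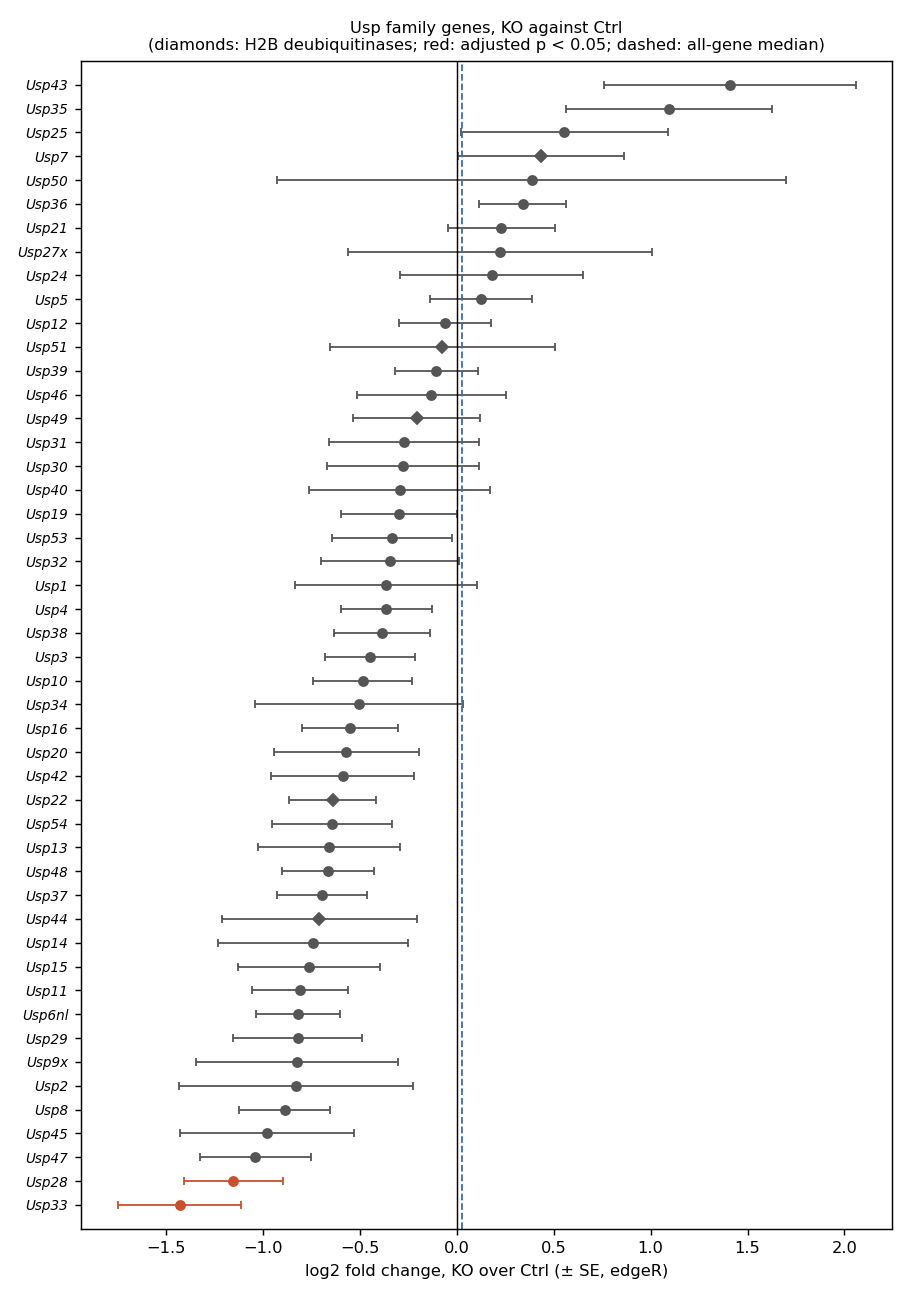
Log2 fold change (KO over Ctrl) of the 48 members with its SE, ordered by size; diamonds are the H2B deubiquitinases, the dashed line is the median of all genes and the called members are in red. Of the 48 points, 38 lie to the left of 0, and the 2 called are Usp28 and Usp33.

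Of the H2B deubiquitinases, 4 of 5 had fold changes below 0, against 49% of all genes. Only 1, Usp22, was lower in every KO library, against 18.9% of all genes. The median log2 fold change of the 5 was -0.21, and that of the other 43 members was -0.45. None of the 5 passed the adjusted threshold by edgeR, DESeq2 or limma-voom. At an unadjusted p below 0.05 by edgeR, 1 of 5 was lower, against 14.3% of all genes. Added up, the 5 genes gave 335, 340 and 306 CPM in Ctrl against 253, 249 and 213 CPM in KO, most of it from Usp22. The difference between the medians was not tested. It was smaller in some fits: -0.18 against -0.21 with GC offsets, and -0.51 against -0.57 without KO 1. By DESeq2 the medians were -0.17 against -0.42, and by limma-voom -0.26 against -0.48.

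Usp22, the protease of the SAGA coactivator's deubiquitinating module, was the most abundant member by CPM. Usp22 (NM_001004143, chr11:61151781-61175059, GRCm38.p6) stood at 259.8, 266 and 229 CPM in Ctrl (mean 252 ± 20.1, SD, n = 3) and at 148, 187 and 149 CPM in KO (mean 161 ± 22.5, SD, n = 3). All 3 KO libraries were lower than all 3 Ctrl libraries, with a log2 fold change of -0.64 (SE 0.226, adjusted p = 0.102 by edgeR). The fold change stayed below 0 in all 17 alternatives run on it, between -0.74 and -0.51, and passed the threshold in none of them. Its neighbour Tnfrsf13b, which overlaps it, held 115 counts against 30397 for Usp22.

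Usp7, best known for stabilising MDM2 and p53, was led by 1 library. It stood at 26.3, 33.1 and 31.1 CPM in Ctrl and at 68.5, 33.3 and 20.5 CPM in KO, so that KO 1 was the highest and KO 3 the lowest of the 6. The log2 fold change was 0.43 (SE 0.427, adjusted p = 0.524 by edgeR) and turned to -0.09 without KO 1.

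Usp44, which acts in the mitotic checkpoint, showed the same KO 1. Its levels were 12.1, 12.8 and 12.8 CPM in Ctrl against 14.2, 3.94 and 4.94 CPM in KO, with a log2 fold change of -0.71 (SE 0.502, adjusted p = 0.373 by edgeR). Without KO 1 it was -1.43 (adjusted p = 0.0138 by edgeR). Usp44 shares 937 bases with Metap2, a gene with 18506 counts against 1463 for Usp44, and reads from the shared stretch cannot be told apart.

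Usp49 and Usp51 gave no difference that could be told from the spread between pups. Usp49 stood at 33.8, 26.0 and 30.3 CPM in Ctrl and at 17.6, 23.6 and 36.8 CPM in KO, with a log2 fold change of -0.21 (SE 0.327, adjusted p = 0.705 by edgeR). It shares 95 bases with Tomm6, which held 30790 counts against 4200. X-linked Usp51 stood at 3.14, 2.15 and 3.26 CPM in Ctrl and at 4.66, 1.16 and 2.30 CPM in KO, with a log2 fold change of -0.07 (SE 0.581, adjusted p = 0.946 by edgeR). In both genes the groups overlapped.

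**Figure D2:**
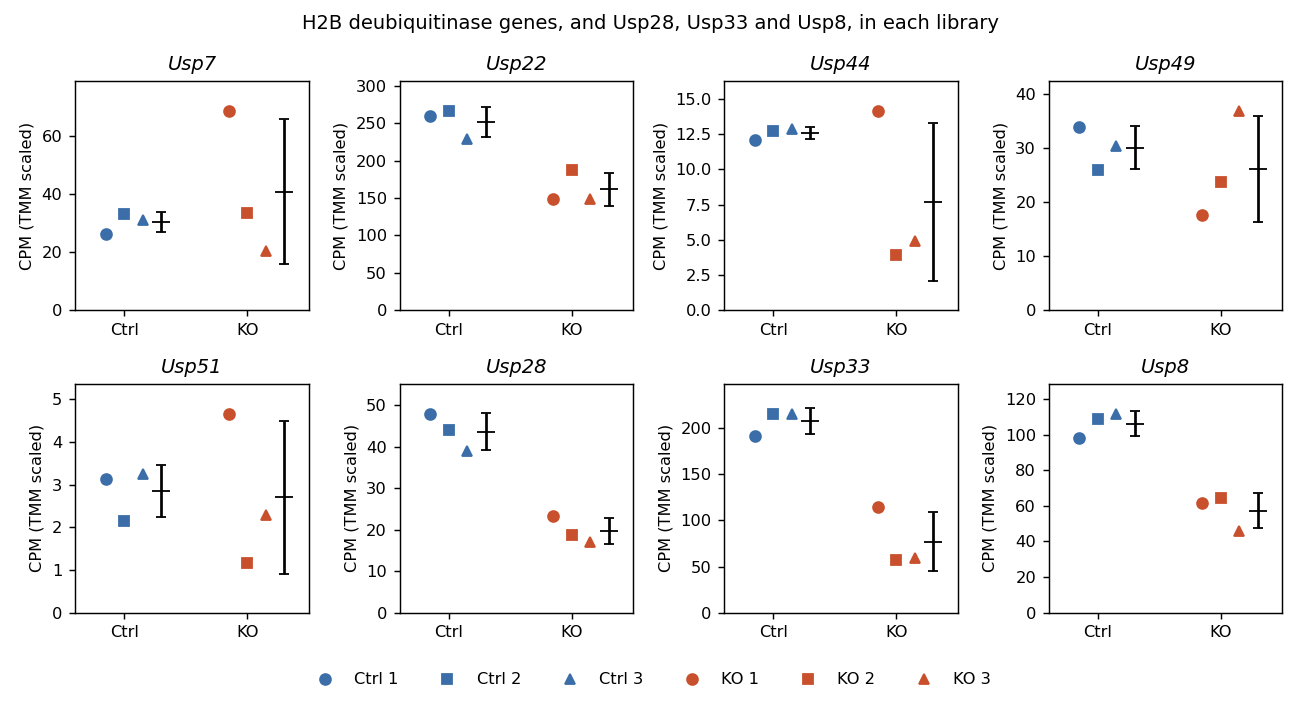
CPM of the 5 H2B deubiquitinases and of Usp28, Usp33 and Usp8 in each library, on linear axes from 0, with the mean and SD of each group of 3 as bars. Usp22, Usp28, Usp33 and Usp8 separate the groups, while KO 1 lies above all Ctrl libraries for Usp7, Usp44 and Usp51.

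The USPs of endosomes, membrane receptors and organelles had a median of -0.82 over 9 members, all of them below 0. It was the lowest of the role groups by edgeR but not by limma-voom (-0.67, against -0.73 for the DNA repair group). The middle gene by edgeR was Usp6nl, which lacks the protease fold. Without Usp6nl the median would lie between the values of Usp9x (-0.82) and Usp20 (-0.57), so the rank may not hold for the proteases alone. Of the 9, 1 was called lower by edgeR, against 4.44% of all genes. Together the 9 members held 1018, 804 and 785 CPM in Ctrl against 501, 534 and 502 CPM in KO, without overlap.

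The member called lower was Usp33, which acts on the Robo1 guidance receptor and on beta-adrenergic receptors. Usp33 (NM_001076676, chr3:152346184-152393617) stood at 191, 215 and 216 CPM in Ctrl (mean 207 ± 14.0, SD, n = 3) and at 114, 57.2 and 59.6 CPM in KO (mean 77.0 ± 32.2, SD, n = 3). The Ctrl mean was 2.69 times the KO mean, and KO 1 lay between the other KO libraries and Ctrl. The log2 fold change was -1.43 (SE 0.318, adjusted p = 0.0329 by edgeR), from 1436 to 5595 counts per library. It was -0.99 with GC offsets (adjusted p = 0.0195 by edgeR). Leaving out any library other than KO 1 ended the call, with adjusted p up to 0.135 by edgeR.

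Usp8, which rescues internalised receptors such as EGFR from lysosomal sorting, missed the threshold narrowly. It stood at 98.1, 109 and 112 CPM in Ctrl and at 61.6, 64.4 and 46.1 CPM in KO (log2 fold change -0.89, SE 0.234, adjusted p = 0.0503 by edgeR). Its partner in this sorting step, Stam, was called lower, with a log2 fold change of -1.44 (adjusted p = 0.024 by edgeR), but not with GC offsets, at -0.61 (adjusted p = 0.165 by edgeR). Usp6nl, the Rab regulator, stood at 89.0, 97.8 and 84.3 CPM against 55.1, 45.3 and 53.4 CPM (log2 fold change -0.82, SE 0.218, adjusted p = 0.0516 by edgeR). In both genes all KO libraries lay below all Ctrl libraries.

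The other members of this group overlapped between genotypes. Usp20, a close relative of Usp33, stood at 98.2, 69.6 and 65.8 CPM in Ctrl and at 26.8, 68.8 and 61.9 CPM in KO, with KO 1 lowest. Usp19, which has a form anchored in the endoplasmic reticulum, stood at 205, 147 and 147 CPM against 89.6, 157 and 159.6 CPM (log2 fold change -0.30, adjusted p = 0.535 by edgeR). With GC offsets both were called lower, Usp20 at -0.93 (adjusted p = 0.0432 by edgeR) and Usp19 at -0.65 (adjusted p = 0.0467 by edgeR). Usp2, linked to the circadian clock, had a log2 fold change of -0.83, with Ctrl 1 at 234 CPM and the other 5 libraries between 45.5 and 75.8 CPM. X-linked Usp9x, which acts on SMAD4 and on endocytic adaptors, stood at 35.9, 63.0 and 52.0 CPM in Ctrl and at 53.7, 17.8 and 13.7 CPM in KO.

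USPs of DNA repair, replication and the cell cycle had a median of -0.69 over 9 members, 8 of them below 0. In this group 1 of 9 was called lower by edgeR, against 4.44% of all genes. The sum of the 9 members was 630, 736 and 681 CPM in Ctrl and 484, 396 and 326 CPM in KO.

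That member was Usp28, which stabilises MYC and takes part in the 53BP1 response. Usp28 (NM_175482, chr9:48985319-49042517) stood at 48.0, 44.0 and 39.1 CPM in Ctrl (mean 43.7 ± 4.48, SD, n = 3) and at 23.2, 18.7 and 17.1 CPM in KO (mean 19.7 ± 3.19, SD, n = 3). The Ctrl mean was 2.22 times the KO mean and the lowest Ctrl library was above the highest KO library. The log2 fold change was -1.15 (SE 0.255, adjusted p = 0.0325 by edgeR), from 469 to 1406 counts per library, and -0.89 with GC offsets (adjusted p = 0.0350 by edgeR). As for Usp33, leaving out any library other than KO 1 ended the call, with adjusted p up to 0.147 by edgeR.

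Usp47, an enzyme of base excision repair through DNA polymerase beta, stood at 184, 185 and 180.4 CPM in Ctrl and at 123, 81.3 and 63.2 CPM in KO (log2 fold change -1.04, SE 0.287, adjusted p = 0.0566 by edgeR). X-linked Usp11, which acts in homologous recombination, stood at 59.9, 64.0 and 52.9 CPM against 28.9, 41.3 and 30.8 CPM (log2 fold change -0.81, SE 0.248, adjusted p = 0.0724 by edgeR). Usp48 stood at 69.9, 85.0 and 75.3 CPM against 53.2, 53.5 and 38.8 CPM. None of these 3 had overlapping groups. Usp1, the enzyme that acts on FANCD2 and PCNA, and Usp24 did overlap, and KO 1 was their highest library at 36.2 and 39.1 CPM.

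Usp37, which opposes the degradation of cyclin A, depended on which transcript entry was read. The longest entry, used for the main values and the family's sums, covers 108776 bases and contains all of Cnot9. Over all libraries it held 28061 counts, against 11108 for the shorter entry and 16618 for Cnot9. How many of its reads came from Cnot9 was not tested. The longest entry stood at 200.2, 273 and 247 CPM in Ctrl and at 161, 149.8 and 135 CPM in KO. Its log2 fold change was -0.69 (SE 0.231, adjusted p = 0.0885 by edgeR), and -0.19 with GC offsets (adjusted p = 0.573 by edgeR). The shorter entry covers 70311 bases and stood at 85.7, 134 and 126 CPM in Ctrl and at 55.9, 33.7 and 39.8 CPM in KO. The Ctrl mean of that entry was 2.67 times the KO mean, against 1.62 times for the long one. With the shortest entry of every gene, an alternative chosen after seeing the data, Usp37 was called lower at -1.42 (SE 0.297, adjusted p = 0.0307 by edgeR). It was also called lower with GC offsets added, at -0.95 (adjusted p = 0.0216 by edgeR). Those offsets used the GC content assigned to the longest entry, not that of the shorter one. With the shortest entries alone, 4 members were called lower and none higher, against 4.26% and 5.67% of all genes.

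Among USPs of Notch, TGF-beta, Wnt, NF-kB and stress signalling, 0 of 7 were called by edgeR, DESeq2 or limma-voom and 0 had an unadjusted p below 0.05 by edgeR, with a median of -0.39 and 6 below 0. With GC offsets the median was -0.12 and 1 of 7 was called lower, against 5.79% of all genes. Usp4, an activator of TGF-beta receptor signalling, was the second most abundant member by CPM, at 238, 219 and 206 CPM in Ctrl and at 154, 208 and 154 CPM in KO (log2 fold change -0.36, adjusted p = 0.328 by edgeR), with groups that overlapped. Usp10, which deubiquitinates the Notch1 intracellular domain in endothelium, stood at 176, 164 and 153 CPM against 85.3, 128 and 139.7 CPM without overlap (log2 fold change -0.49, adjusted p = 0.237 by edgeR). Usp10 was the member called lower with GC offsets, at -0.67 (adjusted p = 0.0445 by edgeR). Usp15, which acts on TGF-beta receptors and SMADs, stood at 88.8, 133 and 136 CPM against 109, 53.5 and 48.0 CPM. Usp34, which acts on axin in the Wnt pathway, stood at 62.7, 119 and 113 CPM against 133, 38.2 and 35.6 CPM. In both, KO 1 lay within or above the Ctrl range and the other KO libraries below it.

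The other USPs of histones, chromatin and the nucleolus, many of which act on H2A, were close to level. Their sum was 427, 413 and 416 CPM in Ctrl and 396, 378 and 382 CPM in KO, the median was -0.10 over 8 members, 5 were below 0, and none was called by the 3 tools or had an unadjusted p below 0.05 by edgeR. Usp16, which removes ubiquitin from H2A before mitosis, stood at 68.4, 68.8 and 77.3 CPM against 61.7, 40.1 and 44.9 CPM, and Usp3, which acts on H2A, at 105, 111 and 108 CPM against 96.5, 73.1 and 68.0 CPM. Both were lower in every KO library. Usp21 (110.0, 97.5 and 98.4 CPM in Ctrl, 80.4, 129.7 and 149 CPM in KO) and the nucleolar Usp36 (52.9, 44.1 and 43.5 CPM in Ctrl, 52.8, 63.1 and 62.1 CPM in KO) had fold changes above 0. Usp12 stood at 32.8 to 40.7 CPM in Ctrl and at 31.3 to 37.9 CPM in KO.

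**Figure D3:**
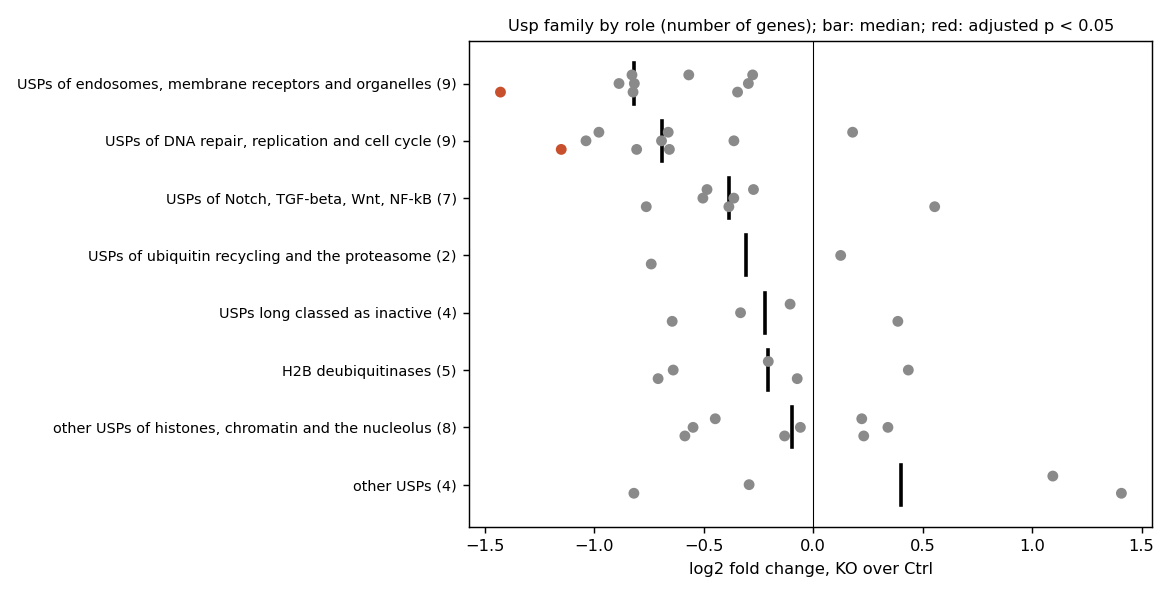
Log2 fold change (KO over Ctrl) of each member, 1 point per gene, by role group, with the number of genes in brackets, the group's median marked and called members in red. All 9 genes of the endosome and receptor group lie below 0, and the other histone and chromatin group is centred near -0.10.

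The 2 enzymes of ubiquitin recycling had fold changes of opposite sign, neither of them called by edgeR with all 6 libraries. Usp5, which disassembles free ubiquitin chains, stood at 201, 158 and 130.4 CPM in Ctrl and at 141, 198 and 195 CPM in KO (log2 fold change 0.13, adjusted p = 0.781 by edgeR), and its sign turned with GC offsets, to -0.17. Usp14, which works on the proteasome, stood at 85.1, 129 and 130.5 CPM against 129, 37.6 and 39.9 CPM (log2 fold change -0.74, adjusted p = 0.343 by edgeR). With GC offsets it stood at -0.25, so that both genes were then below 0. Of the 4 members long classed as catalytically inactive, Usp39, a splicing factor, stood at 58.4, 53.4 and 57.6 CPM against 56.4, 52.7 and 48.3 CPM, and Usp54 at 32.4, 34.0 and 29.0 CPM against 26.4, 21.1 and 13.5 CPM. Usp50 held 0 to 17 counts per library and Usp27x 3 to 20, too few to compare.

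The 3 highest fold changes were those of Usp43, Usp35 and Usp25, none of them called. Usp43 stood at 1.88, 2.43 and 1.89 CPM in Ctrl and at 10.1, 4.86 and 1.58 CPM in KO (log2 fold change 1.41, SE 0.649, adjusted p = 0.184 by edgeR). Usp35 stood at 3.31, 3.92 and 3.52 CPM against 4.47, 14.1 and 4.42 CPM (log2 fold change 1.09, SE 0.530, adjusted p = 0.202 by edgeR), with KO 2 far above the other KO libraries. Usp25 followed at 0.55, with KO 1 at 49.8 CPM against 10.7 to 18.7 CPM elsewhere. The imprinted Usp29 stood at 9.57, 14.1 and 13.9 CPM in Ctrl and at 7.37, 5.70 and 8.19 CPM in KO.

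Set per kilobase of exon, the Ctrl levels of the most abundant members lay close together. Usp4 stood at 64.3 ± 4.80 CPM per kilobase (SD, n = 3), Usp14 at 56.9 ± 12.8, Usp22 at 56.8 ± 4.53 and Usp5 at 53.0 ± 11.6, so that neighbours in this order did not differ beyond their spread. Usp7, Usp44, Usp49 and Usp51 stood far lower in Ctrl, at 7.54, 5.12, 3.64 and 1.29 CPM per kilobase. The deposited lengths were within 2% of the genomic span in 34 of 48 members, so reads in introns may be counted and these levels are approximate.

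The remaining members had overlapping groups, apart from Usp38, which was lower in every KO library by little (49.1 to 55.7 CPM in Ctrl, 31.1 to 47.2 CPM in KO). Usp13 stood at 13.6 to 17.9 CPM in Ctrl and at 6.27, 9.52 and 13.9 CPM in KO (log2 fold change -0.66), and Usp45 at 11.0, 18.7 and 20.9 CPM against 13.4, 5.02 and 7.20 CPM (-0.98). Usp30, which opposes mitophagy at the mitochondrial outer membrane, stood at 40.2, 17.4 and 22.8 CPM against 16, 29.7 and 20.7 CPM (-0.28). For Usp31, Usp32, Usp40, Usp42, Usp46 and Usp53 the log2 fold changes lay between -0.59 (Usp42) and -0.13 (Usp46), and in all 6 the KO 1 library was the highest KO library.

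The KO libraries did not move as a block within the family. KO 1 was below all Ctrl libraries in 23 of 48 members (39.3% of all genes), KO 2 in 33 (41.7%) and KO 3 in 36 (36.7%). KO 1 was above all Ctrl libraries in 13 members (39.4% of all genes), against 5 for KO 2 (37.1%) and 4 for KO 3 (36%). In 15 members, among them Usp9x, Usp14, Usp15, Usp34, Usp44 and Usp45, KO 2 and KO 3 were both below all Ctrl libraries and KO 1 was not, a pattern found in 11.8% of all genes. In 4 members, Usp2, Usp19, Usp21 and Usp30, KO 1 was below all Ctrl libraries and KO 2 and KO 3 were not, as in 11.4% of all genes.

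The split moved with base composition. The 14 members with transcripts under 45% G or C summed to 1033, 1332 and 1317 CPM in Ctrl and to 1050, 559 and 517 CPM in KO, and KO 1 was the highest KO library in 13 of them, against 79.2% of all genes in this range. The 16 members at or above 50% summed to 1745, 1341 and 1259 CPM in Ctrl and to 951, 1355 and 1260 CPM in KO, with KO 1 highest in 3, against 18.4% of all genes in this range. Across the 48 members, Spearman's rho between GC content and the ratio of KO 1 to the other KO libraries was -0.68, and across 16093 genes it was -0.60. Genes are not independent replicates, and all these points share the same 6 libraries. The median log2 fold change was -0.72 in the members under 45% and -0.24 in those at or above 50%, against -0.47 and 0.31 over all genes in the same ranges. With GC offsets the 2 medians of members were -0.20 and -0.27. The members' transcripts had a median GC content of 47.7%, against 50.4% for all genes. By deposited length the members were also longer, with a median of 50.2 kilobases against 21.9 kilobases for all genes. The part of length in the differences between members and all genes was not tested.

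**Figure D4:**
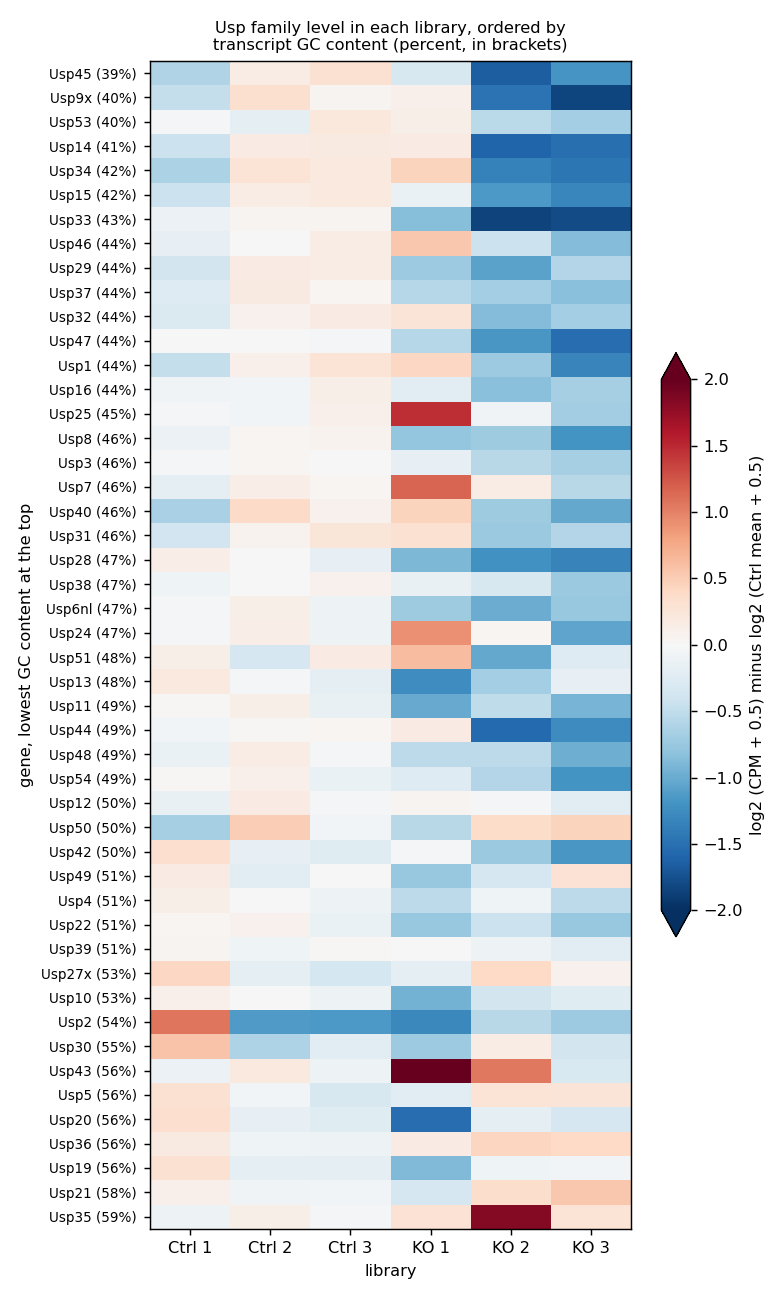
Log2 of each member's CPM in each library over its Ctrl mean (0.5 added to both), as colour, with genes ordered by GC content of the transcript. Among the members under 45% GC, KO 1 is the highest KO library in 13 of 14 and lies below all Ctrl libraries in 5; among those at 50% or more it is the highest in 3 of 16 and lies below all Ctrl libraries in 9.

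The 4 X-linked members, Usp9x, Usp11, Usp27x and Usp51, had a median log2 fold change of -0.44 and no call by edgeR, and the 44 others had a median of -0.42 with both calls. Over all 545 X-linked genes tested the median was -0.20. DESeq2 called 1 X-linked member lower, Usp11, against 9.85% of all genes. EdgeR without KO 1 called 1 lower, Usp9x, against 14.5% of all genes. With GC offsets the X-linked members' median was -0.10 and that of all X-linked genes 0.09. Members that overlap no other gene, 33 of 48, had a median of -0.36 and held both calls. Besides Usp37, Usp44 and Usp49, the values of Usp14 (1870 bases shared with Thoc1), Usp16 (191 bases with Cct8), Usp34 (2679 bases with Ahsa2), Usp40 (59 bases with Dgkd), Usp45 (51 bases with Tstd3) and Usp54 (21769 bases with 1810062O18Rik) are uncertain, since reads in the shared stretches cannot be assigned.

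Of 13 partner proteins of USPs, 2 were called lower and none higher by edgeR, with a median of -0.29, where 4.44% of all genes were called lower. They were Stam and Wdr20 (log2 fold change -1.06, adjusted p = 0.034 by edgeR), the cofactor of Usp12 and Usp46. Wdr48, the activator of Usp1, Usp12 and Usp46, stood at -0.82 (adjusted p = 0.052 by edgeR). Of the SAGA partners of Usp22, Atxn7l3 stood at 0.86 (adjusted p = 0.125 by edgeR) and Eny2 at -0.26, whose sign turned with GC offsets, to 0.44. With GC offsets the partners' calls changed: Stam and Wdr20 (-0.77, adjusted p = 0.0695 by edgeR) were no longer called, G3bp1 (0.69, adjusted p = 0.041 by edgeR) and Atxn7l1 (0.69, adjusted p = 0.0445 by edgeR) were called higher, and the median was -0.14. Of 33 deubiquitinases of other families, 1 was called higher and 2 lower by edgeR, against 5.85% and 4.44% of all genes. The 1 higher was Uchl1 (1.40), a neuronal enzyme whose gene overlaps Uchl1os. The 2 lower were Mysm1 (-1.56), which acts on H2A, and Otud7b (-0.92). The median of the 33 was -0.37. With GC offsets these 3 kept their calls, 4 were lower in all, and the median was -0.07. Of all genes, 6.55% were called higher and 5.79% lower with these offsets.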

How the data were processed

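Raw counts per RefSeq transcript entry were deposited for 6 libraries, with the authors' size-factor normalized counts (a signal), log2 fold changes, standard errors and Wald statistics (scores), p-values and RPKM. Per the submitters' processing notes, Trimmomatic 0.36, STAR, DESeq2, edgeR and deepTools were used with mm10; which counter and strand setting made the counts is not stated. The deposited log2 fold changes and p-values of the authors are used only where the authors' deposited table is named, and the authors' RPKM and scores were not used. From the deposited counts, 1 entry per symbol was taken (the longest, ties by the highest count), genes were filtered with filterByExpr and scaled by TMM, and KO was compared with Ctrl by the quasi-likelihood test of edgeR 4.0.16 with Benjamini-Hochberg adjustment over 16217 genes at 0.05. DESeq2 1.42.0 and limma 3.58.1 were alternatives, with other scalings, GC offsets, a replicate block, other entries and each library left out. The shortest-entry alternatives and the one without X-linked members were chosen after seeing the data. The script was tested on simulated data.

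An SE is that of the log2 fold change. Each library is a different pup, so p-values measure the spread between these pups, and an exact permutation test of 3 against 3 cannot go below 0.1. The raw column of Ctrl 3 carries another number in its name; its values equal the authors' normalized Ctrl 3 column times 1 constant. Depth sets the precision through the counts per library. The members and lists were chosen with earlier results of these data known. Named in full were the H2B deubiquitinases, every called member and the 5 most abundant; other members were named to describe their role groups, some of them after their values were seen. Per-length levels use exon lengths of GENCODE M21, locations and sequences RefSeq on GRCm38.p6, to which all 48 members matched.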

Additional observations from a re-analysis of the deposited data

How the results depend on the processing

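The number of members higher in KO was 0 in every alternative run. The number lower, 2 with edgeR, was 6 with DESeq2, 5 with limma-voom, 5 with GC offsets, 4 with the shortest entry, 6 with GC offsets and the shortest entry, 0 with the replicate block, 0 with GC offsets and the block, and 0 to 12 with 1 library left out. The members' median log2 fold change, -0.42, was -0.20 with GC offsets, -0.19 with GC offsets and the shortest entry, -0.22 with GC offsets and the block, and -0.57 to -0.32 with 1 library left out. The H2B deubiquitinases' median was -0.51 to -0.11 with 1 library left out. Over all genes, 1668 calls became 3536 with DESeq2, 1 with the block, 2 with GC offsets and the block, and 0 to 4927 with 1 library left out. Same-numbered Ctrl and KO libraries had deviations that correlated at -0.39, 0.07 and -0.26, so the numbers were not taken to pair pups; under the block Usp28 and Usp33 had adjusted p of 0.148 and 0.133 by edgeR. Signs turned for Usp5 (-0.17 with GC offsets, with GC offsets and the block, and with GC offsets and the shortest entry; -0.015 to 0.34 with 1 library left out), Usp51 (0.061 with GC offsets, 0.065 with GC offsets and the shortest entry; -0.66 to 0.30), Usp49 (-0.49 to 0.074) and Usp7 (-0.090 to 0.79). Rnf20 passed the threshold only without KO 1 among these alternatives, and Rnf40 with GC offsets, with or without the shortest entry. The cause of these changes was not tested. Counts of 20 or fewer per library limit Usp50 and Usp27x.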

Other observations

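By the longest entry of each member, 5 were lower in KO at an adjusted p below 0.05 in the authors' deposited table, made with DESeq2. They were Usp28 (log2 fold change -1.06, adjusted p = 0.00241), Usp33 (-1.35, adjusted p = 0.00152), Usp47 (-0.95, adjusted p = 0.0216), Usp6nl (-0.73, adjusted p = 0.0230) and Usp8 (-0.80, adjusted p = 0.0281). For Usp37 the authors' deposited table gives -0.60 for the longer entry (adjusted p = 0.0918 by DESeq2). For the shorter one it gives -1.33 (adjusted p = 0.000938 by DESeq2), which is below the threshold.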
